A study of Rattus norvegicus with 4 samples.

Results

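The genes described here encode the machinery that buds, addresses and fuses transport vesicles, measured in 2 rat prostate tumour cell lines. They were chosen by name. A probe set belonged if its annotation gave exactly 1 gene symbol and that symbol began with Stx, Snap2, Vamp, Syt, Ap1, Ap2, Ap3, Cop, Sec, Vps, Clt, Tmed or Trapp, or was Nsf, Napa, Napb or Napg. This gave 110 of the 8799 probe sets of the table, reading 74 of 4737 named genes, and all 74 symbols were the same in the RefSeq gene table. The rule used no measured value.

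Total RNA of the lines G and MAT-LyLu, both sublines of the Dunning R3327 rat prostatic tumour, was hybridised to 4 Affymetrix arrays, 2 per line. G was the control and, per the submitters, does not metastasise, while MAT-LyLu is described as strongly metastatic. The labels name no treatment or genetic change. The 2 arrays of a line are called duplicates, and the labels do not say whether they came from separate cultures. All p-values therefore rest on duplicates whose spread may be technical. The limma p-values set the difference between the lines against that spread, which the fit partly shares across probe sets. Each line is a single cell line, so nothing here separates metastatic behaviour from any other difference between the lines.

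Cargo leaves a membrane in a vesicle shaped by a coat. COPII coats carry it out of the endoplasmic reticulum, COPI coats carry it back and within the Golgi, and clathrin with its adaptor complexes works at the trans-Golgi network, endosomes and plasma membrane. Tethers then catch the vesicle at its target, and SNARE proteins on both membranes zip together to fuse them. SM proteins assist that step, and the ATPase NSF with its SNAP adaptors takes the used SNAREs apart. Some synaptotagmins add calcium control in secretory cells.

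Signals are in MAS5 units. Log2 differences are MAT-LyLu minus G on the scale log2(signal + 16), and each SE is the standard error that limma fitted. Every adjusted p comes from that 2-sided limma test with Benjamini-Hochberg adjustment over the 6555 probe sets tested, and a probe set passed below 0.05. A gene was read by its brightest tested probe set, by mean log2 signal. Each array was given a background level, from 1891 to 2311 units, set at percentile 95 of 23 control probe sets for bacterial, yeast and mouse sequences. A line under it on both arrays has only a bound, and its fold is written "at least", with the dim signals raised to that level.

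Of the 74 genes, 63 had a tested probe set, and 17 of them passed. Higher in MAT-LyLu were 5 and lower 12, while 33.3% of all 3867 genes tested passed, 13.7% higher and 19.6% lower. By probe set, 30 of the 87 tested passed, 10 higher and 20 lower, beside 33.7% of all probe sets, 13.6% higher and 20.1% lower. These shares are near or under the background, so the machinery did not stand apart by count. The median log2 difference was -0.03 over the member genes and -0.02 over all genes. The lines did not overlap in 41 of the 63 genes, beside 67.2% of all genes, and in 60 of the 87 probe sets, beside 67.4%. A change of 2-fold or more was fitted for Stx4, Stx8 and Copz2 alone among the member genes passing, where 7.84% of all genes passed at that size. By probe set 5 of 87 did so, beside 8.36% of all. With quantile normalization the split of the 63 genes was 7 higher and 8 lower, and with median scaling 6 and 9. For the 87 probe sets these splits were 12 and 14, and 12 and 16. Over all genes, the share of calls that were higher moved the same way, from 41.2% to 49.9% with quantile normalization and 48.8% with median scaling. Without G replicate 0 it was 9 and 8, and without MAT-LyLu replicate 0 it was 4 and 7, while 33.5% and 25.9% of all genes passed. By probe set the counts were 13 and 12 without G replicate 0, 6 and 16 without G replicate 1, 8 and 12 without MAT-LyLu replicate 0, and 6 and 16 without MAT-LyLu replicate 1.

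**Figure D1:**
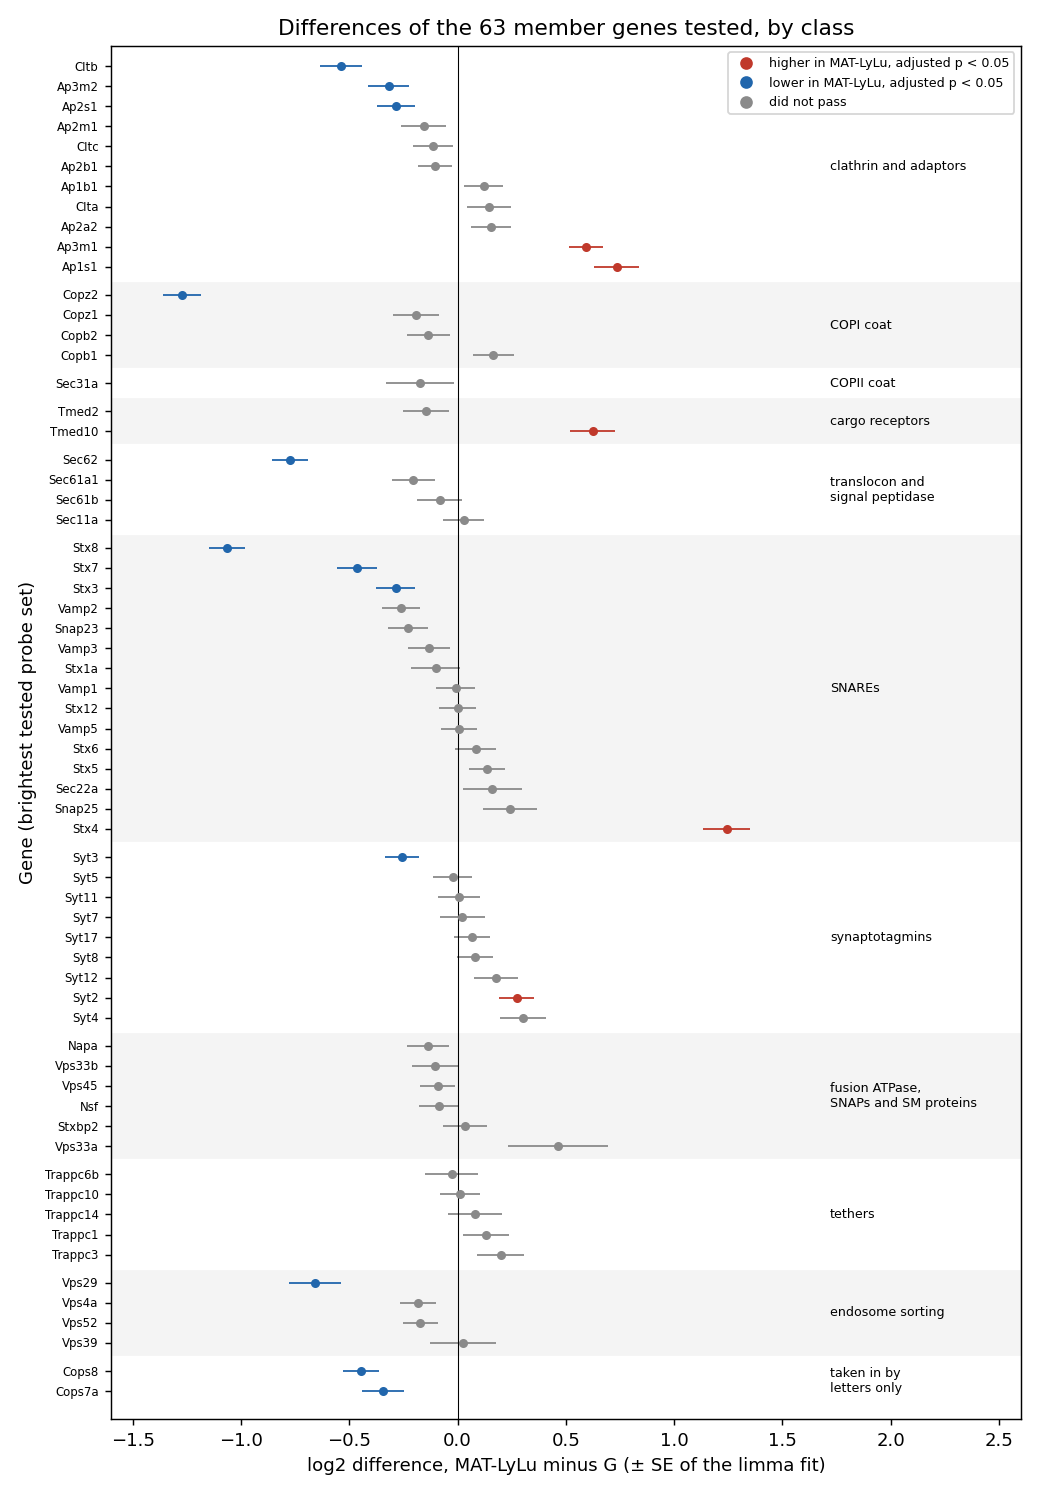
Log2 difference between the lines for the 63 member genes tested, by class of machinery. Points are the brightest tested probe set of each gene, bars are the SE of the limma fit, and colours give the call; most classes hold genes on both sides of 0, with Stx4 at 1.24 and Copz2 at -1.27 as the ends.

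**Figure D2:**
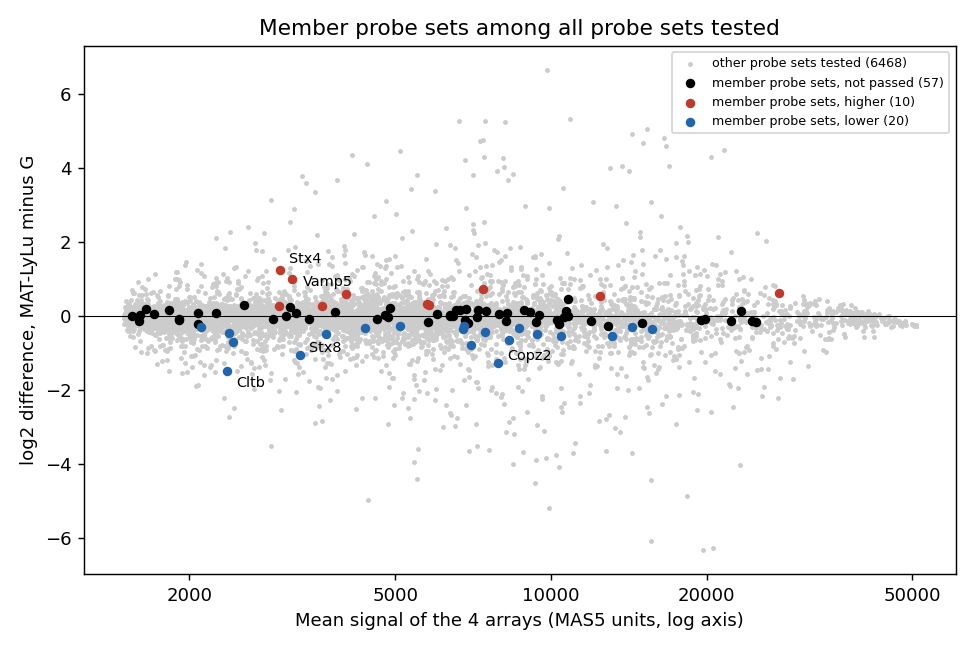
Log2 difference against the mean signal of the 4 arrays (log axis) for all 6555 probe sets tested. The 87 member probe sets, in black and colour, stay within -1.48 and 1.24, inside the spread of the other probe sets in grey.

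On the arrays themselves, log2 signals correlated at r = 0.990 between the arrays of a line and from 0.822 to 0.829 between lines, across probe sets, which are not independent replicates. No member reached the top 5% of the scale on any array. Of the cell type markers, 6 of 7 mesenchymal genes were lower in MAT-LyLu, with a summed signal of 179079 to 197305 in G and 46980 to 48074 in MAT-LyLu. Of 5 epithelial genes tested only Krt8 passed, and it was higher (1835 ± 203 against 41478 ± 60.8, mean ± SD of 2 arrays). The summed epithelial signal was 16866 to 18713 in G and 57351 to 57818 in MAT-LyLu. Nearly all of that difference was Krt8, at 1978 and 1691 in G and 41435 and 41521 in MAT-LyLu, so the sum shows no epithelial-wide rise. The prostate genes Tgm4, Msmb and Pbsn were under the background level on all 4 arrays. The part of these line-wide differences in the results below was not tested. In bulk RNA, fewer cells of a type and less RNA per cell cannot be told apart.

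Of the neuronal and neuroendocrine markers, which matter here because many members are best known from synapses, none of the 7 tested passed in limma and none reached an unadjusted p under 0.05. Their summed signal was 33392 to 33623 in G and 32815 to 34775 in MAT-LyLu. Snap25 and Syt1 in this list are members themselves, and Syp and Syn1 are among the further trafficking genes below. To that extent these markers are not a separate reading. The 4 leukocyte and 2 endothelial markers tested did not pass either, nor did any reach an unadjusted p under 0.05. Of 5 muscle markers, Myh4 was higher, though under the background level on all 4 arrays. The lymphocyte gene Cd8a read 6793 ± 429 in G (mean ± SD of 2 arrays), so a signal above the background level does not by itself show that a gene was expressed.

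The clathrin and adaptor class held subunits that moved in opposite directions. Of its 11 genes tested, Ap1s1 and Ap3m1 rose, Cltb, Ap3m2 and Ap2s1 fell and 6 did not pass. Thus 45.5% passed, beside 33.3% of all genes, and the median log2 difference was -0.10. In each of the 11 the arrays of G and of MAT-LyLu were fully apart, beside 67.2% of all genes.

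Clathrin itself is built of heavy chains, from Cltc, and light chains, from Clta and Cltb. Cltb read 16584 and 14513 on the G arrays and 10667 and 10692 on the MAT-LyLu arrays. Both MAT-LyLu signals were under both G signals, a fall of 1.46-fold (log2 difference -0.54, SE 0.10, adjusted p = 0.0037). A dimmer probe set from the same accession fell from 3849 and 3143 to 1223 and 1256, which were under the background level, and so by at least 1.66-fold. Another Cltb probe set, from a different accession, lay under the background level on all 4 arrays and was not tested. The other light chain gene, Clta, read 22941 and 21383 in G against 25293 and 23746 in MAT-LyLu. It missed the threshold (log2 difference 0.15, 95% interval -0.09 to 0.38), except with quantile normalization, where it passed at 0.21. The heavy chain gene Cltc did not pass, at 19730 and 20731 in G against 18522 and 18887 in MAT-LyLu (log2 difference -0.11, 95% interval -0.33 to 0.10).

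Within an array, the log2 ratio of Cltb to Clta signal was -0.47 and -0.56 in G and -1.24 and -1.15 in MAT-LyLu. The light chains thus shifted against each other by -0.68, and by -1.15 when the tested probe sets of each gene were averaged, the dimmer of Cltb being under background in MAT-LyLu. The exact 2-sided permutation p of this and of the 3 ratios below was 0.333, the smallest that 2 arrays against 2 can give. These 4 ratios were chosen after the values were seen.

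AP-1 is the adaptor of the trans-Golgi network and endosomes. Ap1s1, its sigma subunit gene, read 5879 and 5198 in G and 9809 and 8644 in MAT-LyLu. It was 1.67-fold higher (log2 difference 0.73, SE 0.10, adjusted p = 0.00095). Ap1b1, the beta subunit gene, did not pass on its brightest probe set (8556 and 8898 against 9035 and 9972), and a second one passed at a log2 difference of 0.27. That second call was lost with each of the 4 arrays left out in turn, at adjusted p from 0.071 to 0.21. Ap1s3, another sigma subunit gene, read 494 and 496 in G and 1762 and 1666 in MAT-LyLu, all under the background level, so it has no fold. It also fell under the filter on low signals and was not tested.

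AP-2 is the adaptor of clathrin at the plasma membrane. Its small subunit gene Ap2s1 read 15793 and 15754 in G and 12670.5 and 13204 in MAT-LyLu, 1.22-fold lower (adjusted p = 0.039), and its second probe set was lower too (log2 difference -0.48), a call lost without G replicate 0 (0.089) or MAT-LyLu replicate 1 (0.15), given as adjusted p. The call of the brightest probe set was lost with quantile, median or cyclic loess scaling and with each of the 4 arrays left out in turn, at adjusted p from 0.053 to 0.23. Ap2m1, the cargo-binding medium subunit gene and the brightest of the class, did not pass, with 27757 and 24891 in G against 23394 and 23745 in MAT-LyLu (95% interval of the log2 difference -0.40 to 0.09). Ap2a2 and Ap2b1 did not pass either, at log2 differences of 0.15 and -0.10.

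AP-3 sorts cargo from endosomes towards lysosomes and related organelles, and its medium subunit comes in a ubiquitous form, from Ap3m1, and a neuronal form, from Ap3m2. Ap3m1 read 3177 and 3218 in G and 4827 and 4841 in MAT-LyLu. This was a rise of 1.51-fold (log2 difference 0.59, SE 0.08, adjusted p = 0.00073), with arrays of a line nearly on top of each other. Ap3m2 read 5085 and 4614 in G and 3691 and 4080.2 in MAT-LyLu, a fall of 1.25-fold (adjusted p = 0.034). Its second probe set, from another accession, read 4442 and 4151 against 2998 and 3109 and fell as well (log2 difference -0.49, adjusted p = 0.0028). The call of the brightest Ap3m2 probe set was lost when replicate 0 of G or of MAT-LyLu was left out (adjusted p = 0.13 and 0.17). The log2 ratio of Ap3m2 to Ap3m1 signal was 0.68 and 0.52 in G and -0.39 and -0.25 in MAT-LyLu, a shift of -0.91.

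**Figure D3:**
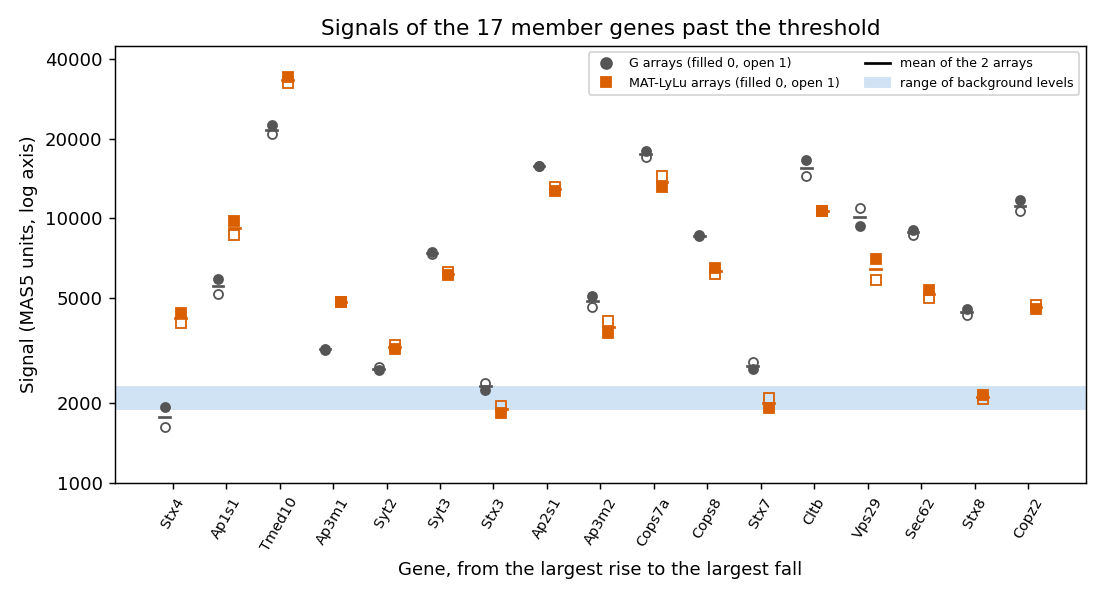
Signals (log axis, MAS5 units) of the 17 member genes past the threshold, with G arrays as grey circles, MAT-LyLu arrays as orange squares, replicate 0 filled and replicate 1 open, and short lines for the mean of the 2 arrays. The arrays of the lines overlap for none of the 17; Stx4 lies under or in the blue band of background levels in G, and Stx3, Stx7 and Stx8 do so in MAT-LyLu.

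In the COPI coat, 1 of 4 genes changed, beside 33.3% of all genes passing. Copz2, which encodes the zeta-2 form of the small zeta subunit, read 11718 and 10653 in G and 4522 and 4699 in MAT-LyLu. It was 2.43-fold lower (log2 difference -1.27, SE 0.09, adjusted p = 1.9e-05), the largest fall among the 63 genes on their brightest probe set. Its paralogue Copz1 read 17281 and 14690.5 in G against 14364 and 13551 in MAT-LyLu, short of the threshold (log2 difference -0.19, 95% interval -0.44 to 0.06). Without G replicate 1 Copz1 passed, at -0.31 (adjusted p = 0.042). The log2 ratio of Copz2 to Copz1 signal was -0.56 and -0.46 in G and -1.66 and -1.52 in MAT-LyLu, a shift of -1.08. The beta and beta-prime subunit genes Copb1 and Copb2 did not pass, at log2 differences of 0.17 and -0.14.

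The 250 bases before the annotated starts of these paralogues are shown because their genes encode alternative forms of 1 subunit and their signals parted. RefSeq windows, build GRCr8, held a promoter for 64 of the 74 genes. Capitals mark every match, on either strand, to 5 motifs, and matches to different motifs do not overlap in the windows shown. One is GGGCGG, the GC box, and another is CCAAT. The others are the E-box CACGTG, the motif TATAAA and the motif TGACGT, a part of the cyclic AMP response element. Copz1 is on the plus strand at chr7:136288007-136288256 and Copz2 on the plus strand at chr10:82328638-82328887.
Copz1: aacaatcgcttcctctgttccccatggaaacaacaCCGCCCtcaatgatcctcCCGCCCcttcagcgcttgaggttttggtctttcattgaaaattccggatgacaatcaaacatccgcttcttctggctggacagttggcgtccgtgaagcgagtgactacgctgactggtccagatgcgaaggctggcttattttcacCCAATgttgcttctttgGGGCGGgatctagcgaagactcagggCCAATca
Copz2: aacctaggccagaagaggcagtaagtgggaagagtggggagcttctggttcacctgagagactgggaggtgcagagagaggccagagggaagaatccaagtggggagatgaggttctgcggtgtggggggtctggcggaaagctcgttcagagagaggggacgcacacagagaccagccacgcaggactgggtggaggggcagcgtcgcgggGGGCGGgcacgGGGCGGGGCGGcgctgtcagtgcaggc
Each window held 3 matches to GGGCGG, and in Copz2 a pair of these overlap. Copz1 also held 2 matches to CCAAT, where Copz2 held none. The bases G and C made up 52.0% of the Copz1 window and 65.2% of the Copz2 window. Over the first window of each of 27457 genes in the table, 32.4% held GGGCGG, 34.3% CCAAT, 5.79% CACGTG, 13.1% TATAAA and 7.25% TGACGT. Over the 64 member genes these shares were 59.4%, 34.4%, 14.1%, 1.56% and 15.6%. The median content of G and C also differed, at 52% over all windows and 61% over the member windows. The wider set was not limited to genes on the array, and the part of either difference in these shares was not tested. A match of these letters is a description and not a binding site.

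COPII was read through Sec31a alone, which encodes part of the outer cage of that coat. It did not pass on any of 3 probe sets, and on the brightest it read 11355 and 8517 in G and 9704 and 7835 in MAT-LyLu, with overlapping lines. The MAT-LyLu arrays disagreed on the dimmer probe sets, at 2434 and 4310.2 on the first and 2229 and 3489 on the second. Without MAT-LyLu replicate 1, these passed as lower (log2 differences -0.49 and -0.40).

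Members of the p24 family, read here through Tmed10 and Tmed2, are receptors that load cargo into vesicles between the endoplasmic reticulum and the Golgi. Tmed10 read 22543 and 20884 in G and 34349 and 32571 in MAT-LyLu. It rose 1.54-fold (log2 difference 0.62, SE 0.10, adjusted p = 0.0023), and its second probe set rose 1.45-fold (10692 and 9626 against 15732 and 13684). Both are of the type that can match related transcripts. So are, among others, the second probe sets of Ap1b1, Ap3m2 and Stx12 and those read for Rab11a, Dab2 and Krt8. Tmed2, the second receptor of this class, read 24076 and 27432 in G against 23524 and 22952 in MAT-LyLu, short of the threshold (log2 difference -0.15, 95% interval -0.40 to 0.10). The log2 ratio of Tmed10 to Tmed2 signal was -0.09 and -0.39 in G and 0.55 and 0.50 in MAT-LyLu, a shift of 0.77.

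At the entry to the pathway, proteins cross into the endoplasmic reticulum through the Sec61 channel. Sec62, an auxiliary subunit that serves translocation after translation, read 9046 and 8669 in G and 5343 and 5003 in MAT-LyLu. It fell 1.71-fold (log2 difference -0.77, SE 0.08, adjusted p = 0.00024). The channel subunit gene Sec61b, the brightest here, read 21299 and 19588 in G against 20244.5 and 18370 in MAT-LyLu, with overlapping lines (95% interval of the log2 difference -0.32 to 0.16). Sec61a1, the gene of the channel's pore, and Sec11a, of the signal peptidase, did not pass (-0.20 and 0.03). Of these 4 genes, Sec62 and Sec61a1 had lines that did not overlap, beside 67.2% of all genes.

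The SNARE class, drawn up by gene symbol and so including Sec22a, held 16 genes, of which 15 were tested. Stx4 rose, Stx8, Stx7 and Stx3 fell and 11 did not pass, beside 33.3% of all genes passing. The median log2 difference was -0.01. The lines were fully apart in 8 of the 15, beside 67.2% of all genes. Of the syntaxins that changed, Stx4 and Stx3 belong to the plasma membrane and Stx7 and Stx8 to late endosomes.

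Stx4 encodes a plasma membrane syntaxin that receives secretory vesicles in many cell types. It read 1928 and 1620.1 in G, under the background level on both arrays, and 4392 and 4022 in MAT-LyLu, well over it. The rise was at least 2.04-fold (log2 difference 1.24, SE 0.11, adjusted p = 7.2e-05). Stx3, a plasma membrane syntaxin of the apical surface of polarised cells, read 2249 and 2373 in G and 1835 and 1954 in MAT-LyLu, under the background level. The fall of at least 1.11-fold passed narrowly (adjusted p = 0.043). The call was lost when signals were floored at background (adjusted p = 0.57), with quantile or median scaling and with each of the 4 arrays left out in turn.

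Stx7 and Stx8 encode partners in the SNARE complex that fuses late endosomes. Stx8 read 4558 and 4322 in G and 2152 and 2077 in MAT-LyLu, with 1 MAT-LyLu array above background. It fell 2.10-fold (log2 difference -1.06, SE 0.08, adjusted p = 3.9e-05), and a second probe set of the same accession fell at least 1.44-fold. Stx7 read 2682 and 2850 in G and 1909.8 and 2096 in MAT-LyLu, 1.38-fold lower (log2 difference -0.46, SE 0.09, adjusted p = 0.0059). Again 1 MAT-LyLu array was above background.

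The windows before the starts of Stx4 and Stx8 are shown because these syntaxin genes changed in opposite directions. Stx4 is on the plus strand at chr1:191881817-191882066 and Stx8 on the plus strand at chr10:53154422-53154671, with motifs in capitals as above.
Stx4: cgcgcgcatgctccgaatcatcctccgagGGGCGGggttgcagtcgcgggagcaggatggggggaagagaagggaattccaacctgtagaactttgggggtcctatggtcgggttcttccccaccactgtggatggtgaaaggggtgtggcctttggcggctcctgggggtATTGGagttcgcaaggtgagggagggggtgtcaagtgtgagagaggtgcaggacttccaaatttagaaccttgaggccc
Stx8: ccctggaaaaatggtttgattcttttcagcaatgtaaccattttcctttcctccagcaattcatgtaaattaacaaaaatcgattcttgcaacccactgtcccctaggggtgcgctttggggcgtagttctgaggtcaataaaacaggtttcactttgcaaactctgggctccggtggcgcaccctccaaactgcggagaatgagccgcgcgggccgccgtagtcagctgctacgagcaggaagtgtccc
The Stx4 window held 1 match to GGGCGG and 1 to CCAAT, and the Stx8 window held none of the 5 motifs. Among members with a window, GGGCGG was found in 8 of the 11 that were lower, 2 of the 5 that were higher and 22 of the 38 that did not pass. For CCAAT these counts were 4, 4 and 14.

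For Vamp1, Vamp2 and Vamp5, vesicle-side SNARE genes, the call depended on the probe set read. Vamp2, which pairs with plasma membrane syntaxins, just missed the threshold on its brightest probe set (14215 and 13900.2 against 11428 and 12013, adjusted p = 0.052). That probe set is of the type that can match related transcripts. A second probe set, not of that type, fell 1.45-fold (12485 and 12289 against 8293 and 8840.5, adjusted p = 0.0020). On the brightest one it passed with the lowest 50% left out, with no intensity trend, with the replicate block (adjusted p = 0.045) and when its probe sets were averaged. Vamp5, a SNARE first known from muscle, read 2133 and 2060 in G against 4529 and 3918 in MAT-LyLu on 1 probe set, a rise of 2.01-fold (log2 difference 1.00, SE 0.10, adjusted p = 0.00013). Its other probe set was brighter by mean log2 signal, though not by mean signal over the 4 arrays (3080 against 3160). That brighter one read 3118 and 3027 against 3014 and 3161, with a log2 difference of 0.01 (95% interval -0.19 to 0.20). The mean of both probe sets passed as higher, at 0.50. Vamp3, read by 1 probe set, did not pass, at -0.13. Vamp1 did not pass on its brightest probe set, at -0.01, while its dimmer one was lower (-0.26). That Vamp1 call was lost with quantile, median or cyclic loess scaling and with each of the 4 arrays left out in turn.

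Among the remaining SNAREs, Stx5 of the Golgi, Stx6 of the trans-Golgi network and Stx12 of recycling endosomes did not pass on their brightest probe sets. The differences were 0.14 for Stx5 and 0.08 for Stx6, and for Stx12 the 95% interval was -0.20 to 0.20. A second probe set of Stx12 was higher (log2 difference 0.32, adjusted p = 0.020), a call lost without G replicate 1 (adjusted p = 0.094) or MAT-LyLu replicate 1 (adjusted p = 0.11). Snap23, the partner of plasma membrane syntaxins outside neurons, did not pass on its tested probe set, with 2323 and 2161 in G against 1851 and 1970.4 in MAT-LyLu (adjusted p = 0.098). The neuronal genes Snap25 and Stx1a did not pass, at log2 differences of 0.24 and -0.10, and both Stx1a probe sets lay under the background level on all 4 arrays. Without G replicate 0, Snap25 passed at 0.43 and Sec22a, whose difference was 0.16, at 0.36.

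Synaptotagmins, a family that includes calcium sensors of regulated secretion, were read through 13 genes, of which 9 were tested. Of these 1 was higher and 1 lower, beside 33.3% of all genes passing, and the log2 differences ran from -0.26 to 0.30 with a median of 0.07. Among them Syt11 and Syt12 were under the background level on all 4 arrays. Syt2 was higher, at 2661 and 2731 in G and 3197 and 3325 in MAT-LyLu (1.21-fold, adjusted p = 0.037). Syt3 was lower, at 7446 and 7344 in G and 6088 and 6288 in MAT-LyLu (1.20-fold, adjusted p = 0.042). Each call was lost with each of the 4 arrays left out in turn, and that of Syt3 also with quantile, median or cyclic loess scaling. Syt4, which did not pass at 0.30 (adjusted p = 0.062), passed with those 3 scalings. It also passed with the mean of all probe sets, at the same 0.30. There nothing was averaged for Syt4, which had only 1 tested probe set. Without G replicate 0 its log2 difference was 0.42. Syt17, the brightest of the class, read 8007 and 7512 in G and 7987 and 8245 in MAT-LyLu (95% interval of the log2 difference -0.13 to 0.26). Syt1, the sensor of fast transmitter release, had signals from 327 to 479, under the background level on all 4 arrays.

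The general fusion machinery did not pass in any of 6 genes tested in limma, beside 33.3% of all genes passing. None had an unadjusted p under 0.05 on its brightest probe set. Nsf, the ATPase, read 2033 and 1898 in G and 1797 and 1901 in MAT-LyLu, with 1 of the 4 arrays above background (log2 difference -0.09, 95% interval -0.30 to 0.13). Napa, which encodes its adaptor alpha-SNAP, read 24061 and 22554 against 20857 and 21530.5 and did not pass (-0.14, 95% interval -0.36 to 0.09), while its dimmer probe set was lower (-0.35, adjusted p = 0.015). That dimmer call was lost when replicate 0 of G or of MAT-LyLu was left out (adjusted p = 0.059 and 0.10).

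SM proteins clasp assembling SNAREs. Vps33a, the SM protein of lysosomal fusion, had the widest spread in this class, at 11931 and 6671 in G and 12294 and 12343 in MAT-LyLu. The G arrays differed from each other by more than the lines did, and leaving out G replicate 0 made it pass as higher (log2 difference 0.88, adjusted p = 0.00025). Its other probe sets had differences of 0.10 and 0.08 and did not pass. Vps33b, Vps45 and Stxbp2 did not pass on their brightest probe sets, with differences from -0.10 to 0.04. A second probe set of Vps33b was higher (0.31), a call lost without G replicate 1 (adjusted p = 0.11) or MAT-LyLu replicate 1 (adjusted p = 0.16).

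TRAPP tethers, which catch vesicles at the Golgi, were read through 5 genes. None passed in limma, beside 33.3% of all genes, or had an unadjusted p under 0.05. Their log2 differences ran from -0.03 in Trappc6b to 0.20 in Trappc3. Trappc1, the brightest, read 11006 and 9456 in G and 11700 and 10668 in MAT-LyLu. Without G replicate 0, Trappc3 passed at 0.34.

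In endosome sorting, 1 of 4 genes tested changed, beside 33.3% of all genes passing. Vps29, a subunit of retromer, the coat that returns receptors from endosomes, read 9365 and 10929 in G and 7028 and 5839 in MAT-LyLu. It fell 1.58-fold (log2 difference -0.66, SE 0.12, adjusted p = 0.0037). Vps26a, another retromer subunit gene, read 1731 and 1512 in G and 925 and 843 in MAT-LyLu, all under the background level and under the filter, so it was not tested and has no fold. Vps4a, an ATPase that recycles the ESCRT machinery, Vps52 of the GARP tether and Vps39 of the HOPS tether did not pass, at -0.18, -0.17 and 0.02.

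The rule also took in 5 genes by their letters only. Cops8 and Cops7a, of the COP9 signalosome, which acts on ubiquitin ligases and is no vesicle coat, both fell. Cops8 read 8632 and 8599 in G and 6511 and 6139 in MAT-LyLu (1.36-fold lower, adjusted p = 0.0040). Cops7a read 17943 and 17077 against 13158 and 14440.3 (1.27-fold lower, adjusted p = 0.026), and lost its call with quantile normalization and without either MAT-LyLu array (adjusted p 0.061 to 0.22). Cops3, Cltrn and Sec14l3 were not tested. Without these 5 genes, 5 of 61 tested were higher and 10 lower, beside 13.7% and 19.6% of all genes.

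The 23 member probe sets under the filter were under the background level on all 4 arrays, and for 11 genes no other probe set was tested. These are Ap1s3, Vps26a, Snap29, Stxbp5, Syt1, Syt6, Syt9, Syt10, Cops3, Cltrn and Sec14l3. With no filter, 4 of the 23 passed (Ap1s3, Vps26a and dim probe sets of Stx5 and Snap23), but signals under the background level give no measured difference.

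Of the member genes, 20 were read by more than 1 tested probe set. At least 1 probe set passed for 13 of them, and no gene had probe sets passing in both directions. All tested probe sets passed together for 6, namely Stx8, Tmed10, Ap2s1, Ap3m2, Cltb and Cops7a. For the other 7 some passed and some did not, and in each of these 7 it was the brightest that did not pass. They are Ap1b1, Napa, Stx12, Vamp1, Vamp2, Vamp5 and Vps33b. Probe sets made from 1 accession, such as those of Stx8, share their source and are not independent readings.

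**Figure D4:**
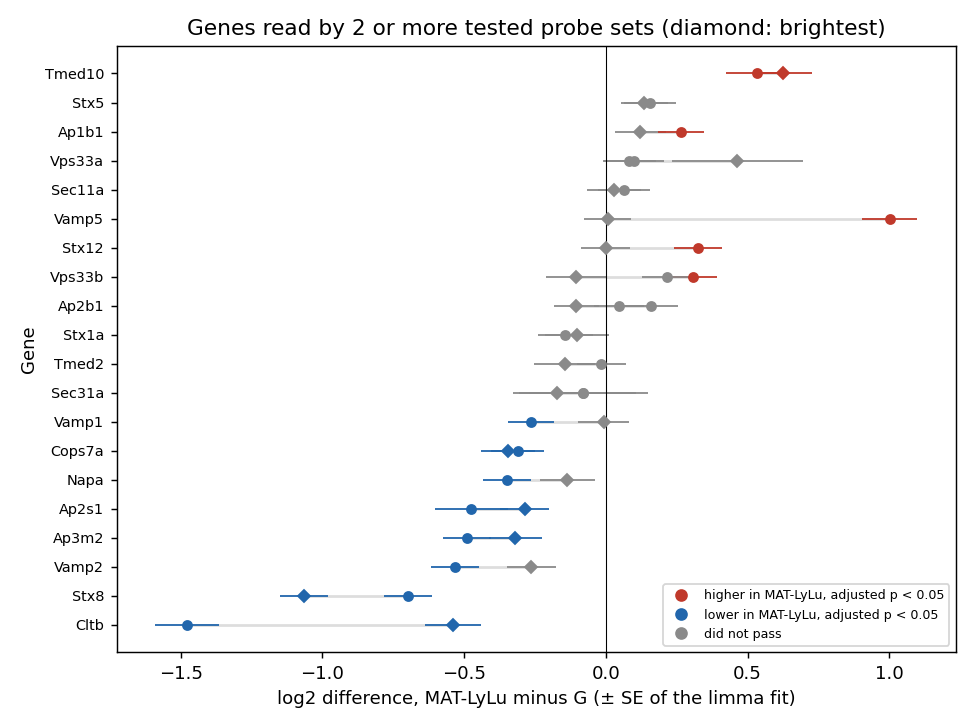
Log2 differences (± SE of the limma fit) of all tested probe sets of the 20 member genes read by more than 1. Diamonds mark the brightest probe set and colours the call; the probe sets of Vamp5 lie 1 near 0 and 1 at 1.00, while those of Stx8 and Cltb are all lower.

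Beyond the rule, 96 of 146 further trafficking genes on a list in 6 groups were on the array, and 82 were tested. Of these, 12 were higher and 17 lower, near the 13.7% and 19.6% of all genes, with a median log2 difference of -0.04. Quantile normalization gave 16 and 15.

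Coat GTPases recruit the coats to membranes, and Arf6 acts at the plasma membrane and in endocytic recycling. Of 11 tested, 3 were higher and 1 lower, beside 13.7% and 19.6% of all genes. Arf6 rose 4.51-fold, from 6902 and 6403 to 29958 and 30023 (log2 difference 2.17, adjusted p = 1.1e-06). Arf4 rose 1.71-fold and Arf2 fell 1.37-fold, a call lost when its probe sets were averaged (log2 difference -0.23, adjusted p = 0.054).

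Of 14 Golgi SNAREs and tethers, 2 were higher and 5 lower, beside 13.7% and 19.6% of all genes. Uso1, the Golgi tether p115, rose 1.64-fold, while Golga2, or GM130, which binds it on the Golgi, fell 1.37-fold. Scfd1, the SM protein of transport between the endoplasmic reticulum and the Golgi, fell 1.38-fold.

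Of 16 genes of clathrin-dependent endocytosis, 3 were higher and 3 lower, beside 13.7% and 19.6% of all genes. Dnm1, a dynamin that cuts vesicles free, fell 1.84-fold (6472 ± 410 against 3511 ± 209) and Synj1, a phosphatase that helps to shed the clathrin coat, fell 1.57-fold. Dab2, a cargo adaptor for clathrin, rose 1.73-fold.

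Rab GTPases mark membranes for their tethers. Of 19 tested, 3 were higher and 5 lower, beside 13.7% and 19.6% of all genes. Rab3a, of secretory vesicles, fell at least 1.55-fold (3355 and 3139 against 1009 and 748). Rab14, of the Golgi and early endosomes, fell 2.39-fold and Rab11a, of recycling endosomes, rose 1.89-fold. Of 16 genes of regulated exocytosis, 1 was higher and 2 lower, beside the same shares of all genes. Scamp1, a membrane protein of secretory carriers, fell at least 1.42-fold. Sv2c passed as lower, a call lost with each of the 4 arrays left out in turn and with quantile, median or cyclic loess scaling (adjusted p 0.064 to 0.25). Doc2a passed as higher with both G arrays under the background level, and lost its call with a floor there (adjusted p = 0.68) and without any 1 array except G replicate 0. Of 6 cargo receptors, 1 passed, beside 33.3% of all genes, and the other 5 did not. The gene passing, Lman1, carries glycoproteins out of the endoplasmic reticulum and fell 1.59-fold (5055 ± 104 against 3175 ± 84.0, adjusted p = 0.00042). The size of that fall depended on the setting, with Lman1 log2 differences from -0.70 to -0.25 over the alternatives listed below.

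**Figure D5:**
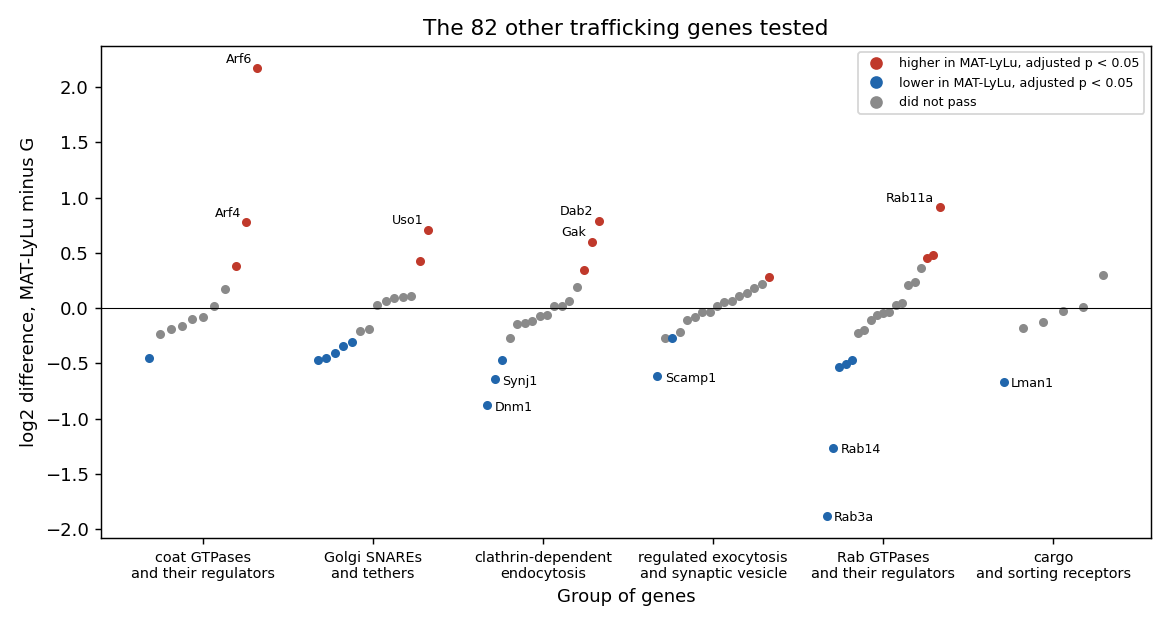
Log2 difference between the lines for the 82 further trafficking genes tested, in 6 groups, ordered by size within each group. Colours give the call; Arf6 lies highest at 2.17 and Rab3a lowest at -1.88, a fitted value of a gene under the background level in MAT-LyLu.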

How the data were processed

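Total RNA was labelled as biotinylated cRNA, per the labels' protocols. The authors deposited 1 table of linear signal intensity values with a column for each array, made with MAS5 per the submitters' processing notes. Its version, scaling and filters are not stated there or in the labels. The array medians ran from 2998 to 3156, so no further scaling was applied. Probe sets were named by the platform annotation, and those with 1 symbol (7018) were used for genes.

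From these intensities log2(signal + 16) was computed. The 59 control probe sets and the 25% of the rest with the lowest mean log2 signal were left out. The lines were compared with limma 3.58.1 in R 4.3.3 (lmFit, eBayes with an intensity trend), tested on simulated data. Members and lists were chosen with earlier results of these data known. Named in full were, in each class, up to 4 genes passing with the largest differences and the brightest gene. Up to 3 genes with the smallest p were named from each further group. Others were named after their values were seen. Alternatives were the pseudocount (1, 64), the filter, 3 scalings, the variance model, the replicate block, a floor at the background level, each array left out, the mean of all probe sets, and suffixed probe sets left out. The number of arrays limits the precision.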

Additional observations from a re-analysis of the deposited data

How the results depend on the processing

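No result changed direction while passing the threshold under any of the 16 alternatives. Of the 17 member genes passing, 11 kept their call in every alternative that tested them (Copz2, Stx4, Stx7, Stx8, Tmed10, Ap1s1, Ap3m1, Cltb, Vps29, Sec62 and Cops8), as did 18 of the 29 further trafficking genes. These runs reuse the same 4 arrays. With the lowest 50% left out, 3 member genes were higher and the members' median log2 difference was -0.087. That median was 0.019 with median scaling, 0.026 with quantile normalization and -0.080 with suffixed probe sets left out, where 5 member probe sets were higher. The median of all genes was -0.034, 0.023, 0.031 and -0.027 in these settings, in the same order, against -0.023 as reported. With each array left out in turn, member genes higher ran from 4 to 9 and lower from 7 to 10, and member probe sets higher from 6 to 13 and lower from 12 to 16. The lines share the replicate numbers 0 and 1 in their titles, and the deviations of same-numbered arrays correlated at r = 0.16 across probe sets, with only 2 pairs. With the replicate block 5 member genes were higher and 13 lower, and 10 and 21 member probe sets. The added fall was that of Vamp2, and no other call of a member gene changed. Among the genes tested, Stx1a, Stxbp2, Syt11 and Syt12 were under the background level on all 4 arrays.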
